A study of Mus musculus with 6 samples.

Results

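The matrix metalloproteinases (MMPs) and the tissue inhibitors of metalloproteinases (TIMPs) were examined in cultured mouse granulosa cells (GCs), which line the ovarian follicle and nurse its oocyte. The members were the 10 genes *Mmp2*, *Mmp9*, *Mmp11*, *Mmp14*, *Mmp15*, *Mmp19*, *Mmp23*, *Timp1*, *Timp2* and *Timp3*, found by their gene symbols. Of these, 9 matched 1 of the 16300 genes of the expression table and all 9 passed the filter on low values, and *Mmp9* was not analysed here. RNA-seq was performed on 6 libraries, 3 from control GCs and 3 from GCs exposed to 25 nM dihydrotestosterone (DHT), an androgen that is not converted to estrogen, for 24 h. All cells came from wild type C57BL/6J females aged 8 to 9 weeks, and both groups were cultured in serum-containing medium and then serum-starved before exposure, the control group receiving medium without DHT. Each library pooled the GCs of 5 mice, so the spread between libraries is a spread between pools of animals and not between single animals. The labels describe the extracted material as whole ovary although they name the cells as granulosa cells, and the culture of GCs is taken from the study's methods. The libraries held from 36111177 to 41928585 reads on genes.

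MMPs are zinc-dependent proteases that cleave collagens, laminins, fibronectin and other matrix proteins, and they are made as inactive precursors whose propeptide has to be removed. TIMPs are small secreted proteins that occupy the active site of MMPs and block it. In the ovary this balance of protease and inhibitor is known for the remodelling of the follicle wall as follicles grow, rupture or regress.

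The coding sequence of the active site is shown first, because it is the feature that the measured proteases share, and it is the site that TIMPs block. Each stretch of 33 bases runs 5′ to 3′ within coding exons of the GENCODE M21 transcript with the longest open reading frame, and capitals mark the codons of the 3 histidines that hold the catalytic zinc.
Mmp2: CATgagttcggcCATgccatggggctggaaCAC
Mmp11: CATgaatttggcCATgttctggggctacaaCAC
Mmp14: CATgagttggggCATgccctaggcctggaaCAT
Mmp15: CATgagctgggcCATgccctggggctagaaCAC
Mmp19: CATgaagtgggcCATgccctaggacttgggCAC
Mmp23: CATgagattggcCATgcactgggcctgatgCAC
Measured against *Mmp2*, *Mmp15* was identical at 29 of the 33 bases, *Mmp14* at 27, *Mmp11* at 26, *Mmp23* at 25 and *Mmp19* at 24.

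The propeptide separates the measured proteases into those that carry a recognition site for furin, a convertase that cuts within the secretory pathway, and those that do not. A furin-type site was found in *Mmp11*, *Mmp14*, *Mmp15* and *Mmp23*, and was not found in *Mmp2* or *Mmp19*. These 12-base stretches are shown 5′ to 3′ with the codons of the basic residues that define the site in capitals.
Mmp11: CGAcagAAGCGC
Mmp14: CGGaggAAGCGC
Mmp15: CGGcggAAACGT
Mmp23: CGAagaCGCCGC

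The inhibitors share another short stretch, the amino terminus of the secreted protein, whose first cysteine reaches into the active site of the protease. The 39 coding bases from that residue are shown 5′ to 3′ for *Timp1*, *Timp2*, *Timp3* and also *Timp4*, with the cysteine codons in capitals.
Timp1: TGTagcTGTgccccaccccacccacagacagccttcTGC
Timp2: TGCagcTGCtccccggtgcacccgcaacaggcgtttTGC
Timp3: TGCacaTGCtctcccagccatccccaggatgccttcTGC
Timp4: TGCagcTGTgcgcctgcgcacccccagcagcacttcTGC
*Timp1*, *Timp2* and *Timp4* were each identical to *Timp3* at 25 of the 39 bases.

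In the mouse genome (GRCm38), *Mmp2* spans chr8:92827291-92853420 on the plus strand and *Mmp15* lies on the same chromosome and strand at chr8:95352268-95375080. *Mmp11* (chr10:75923222-75936496, minus strand), *Timp3* (chr10:86300372-86349506, plus strand) and *Mmp19* (chr10:128790910-128800824, plus strand) lie on chromosome 10. *Mmp14* lies at chr14:54431612-54445364 on the plus strand and *Mmp23* at chr4:155650655-155653384 on the minus strand. *Timp1* lies at chrX:20870166-20874735 on the plus strand and *Timp2* at chr11:118301069-118355740 on the minus strand.

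The labelled cell type was checked against marker genes. Of 8 granulosa markers, 7 were measured, and their summed normalized counts were 111778 to 122415 in control and 93735 to 100317 in DHT libraries. *Inha*, *Esr2* and *Foxl2* fell with DHT at log2 fold changes of -0.61, -0.36 and -0.15. *Cyp19a1*, the aromatase that defines estrogen-producing GCs, was not analysed here, nor were *Cyp17a1* and *Insl3*, the defining markers of theca cells. Summed stromal fibroblast markers (5 of 6 measured) were 231 to 360 in control and 201 to 373 in DHT libraries, and none of them passed the test. The smooth muscle and pericyte markers (5 of 6 measured) summed to 3281 to 5027 and 4125 to 4629, most of it *Mcam*, which did not pass. *Myh11*, *Cspg4* and *Cnn1* rose, with log2 fold changes of 0.67, 0.89 and 0.67. The endothelial markers (4 of 6 measured) summed to 108 to 166 and 143 to 221, with 1 of them, *Erg*, higher. Its log2 fold change was 1.80 (adjusted p = 0.016, limma), from low counts of 6.9 to 19.5 in control and 31.3 to 52.4 in DHT libraries. The theca list (2 of 5 measured, nearly all of it *Ptch1*) summed to 2429 to 2799 and 2193 to 2328 and the surface epithelium list (5 of 5) to 2773 to 3293 and 2199 to 3011, with none passing, and the macrophage and leukocyte list (4 of 6) to 471 to 546 and 362 to 605, with *Csf1r* lower. Oocyte markers (5 of 5) summed to 258 to 672 in control and 41.5 to 457 in DHT libraries, with none passing, and DHT replicate 2 was the lowest, with *Zp3* at 0. The part of these other cell types in the results below was not tested, and in bulk RNA a change in the number of cells of a type cannot be told apart from a change in RNA per cell.

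Transcript levels of the members differed over a wide range. Per kilobase of exon, the mean control level in normalized counts was 15456 for *Mmp11*, 2674 for *Timp2*, 1559 for *Timp1*, 1163 for *Mmp23*, 1054 for *Mmp14*, 294 for *Timp3*, 231 for *Mmp2*, 164 for *Mmp15* and 79.2 for *Mmp19*. No 2 neighbours in this order had overlapping control ranges. The narrowest gap was between *Mmp23*, whose lowest control library was at 1103.2 per kilobase, and *Mmp14*, whose highest was at 1102.8. The level of *Mmp11* stood at percentile 99.6 of all genes tested and that of *Mmp2* at percentile 57.8. With DHT the order changed at 1 place, as *Mmp2* (535 ± 85.1, SD, n = 3) came above *Timp3* (374 ± 23.3). The exon lengths are those of the annotation, and other transcript models would move the levels per kilobase but not the comparison of a gene between groups.

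**Figure D1:**
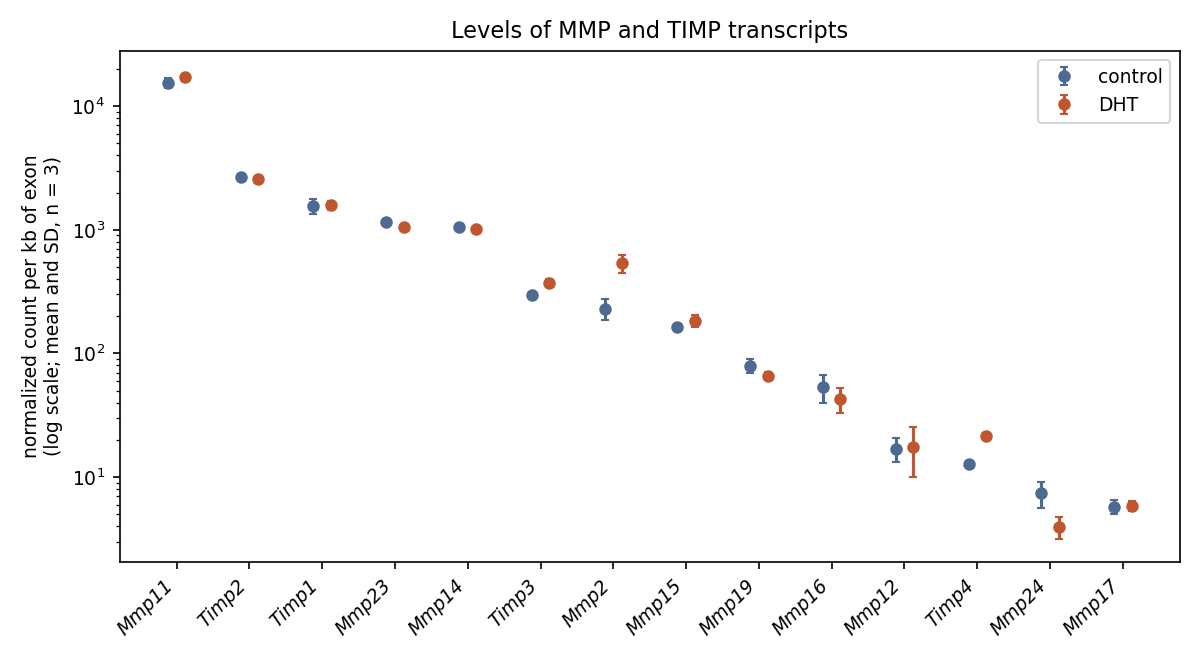
Mean normalized counts per kilobase of exon (log axis) for the 9 measured members, the 4 other measured MMP genes and *Timp4* in control and DHT-treated granulosa cells; error bars are the SD over 3 libraries. *Mmp11* was the most abundant at 15456 in control, and *Mmp2* moved from 231 to 535.

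Whether DHT changed the expression of these genes was asked with limma across 16292 genes, and a gene passed the test at an adjusted p of at most 0.05. Of the 9 measured members, 2 rose, *Mmp2* and *Timp3*, and none fell. Over all genes tested, 11.2% passed, 6.52% as higher and 4.66% as lower, and 2 genes of 9 are too few to set the members apart from this background. At an unadjusted limma p under 0.05, 2 members were higher and 1 was lower, where 2186 and 1915 of the 16292 genes tested were. On the recovered reads, edgeR and DESeq2 each called 2 members higher and 0 lower. Over all genes, edgeR called 1070 higher and 746 lower and DESeq2 1122 and 805. *Mmp2* was the 1 member that also exceeded a log2 fold change of 1 in size; 1.31% of all genes passed both thresholds. The median log2 fold change of the members was 0.02, against -0.005 for all genes tested.

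*Mmp2* encodes gelatinase A, a secreted protease that degrades denatured collagen and type IV collagen of basement membranes. Its normalized counts were 654, 953 and 730.0 in the control libraries and 1492, 1864 and 2057 in the DHT libraries. The groups were far apart, with the lowest DHT library above the highest control library by more than the range of the controls. On the log2 scale it rose by 1.22 (SE 0.15, 95% interval 0.88 to 1.55, adjusted p = 0.0011, limma), and the mean rose 2.32-fold. By the size of its change *Mmp2* ranked 182 among the 16292 genes, and by its p-value 249. The second control replicate was the highest of its group, and leaving out any 1 library gave log2 fold changes from 1.10 to 1.37. Without DHT replicate 2, the library low in oocyte markers, the change was 1.19 for *Mmp2* and 0.37 for *Timp3*, and both still passed the test (adjusted p = 0.0070 and 0.0088, limma).

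The other secreted MMPs did not pass the test. *Mmp11* encodes stromelysin-3, which is activated by furin inside the cell and cleaves few of the usual matrix proteins. The control libraries had 46567, 39319 and 42928 normalized counts and the DHT libraries 44220, 48409 and 50111, so the groups overlapped. The log2 difference was 0.15, with a 95% interval from -0.01 to 0.31 (adjusted p = 0.22, limma), which leaves out a change of the size seen for *Mmp2*. Without control replicate 2, the lowest control, it was 0.088. The exons of *Mmp11* share 155 bases with those of *Chchd10* on the opposite strand, and the strand setting of the counting is not given in the sources used here.

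*Mmp19* encodes a secreted protease that cleaves basement membrane proteins. In normalized counts it was at 304, 297 and 238 in control and 238, 216 and 245 in DHT libraries, so the groups overlapped. The log2 difference was -0.26, with a 95% interval from -0.52 to 0.00 (adjusted p = 0.20, limma). Without the third control replicate, the lowest of its group, the difference was -0.37 and passed the test (adjusted p = 0.044, limma). Of its exon length, 22.3% (789 bases) overlaps exons of *Tmem198b*.

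The membrane-bound proteases also did not pass. *Mmp14* encodes MT1-MMP, the membrane protease that activates pro-MMP2 at the cell surface with TIMP2 as its docking partner. Its normalized counts were 6031, 6247 and 6573 in control and 6076, 6137 and 6111 in DHT libraries. The DHT libraries lay within the control range, and the log2 difference was -0.04, with a 95% interval from -0.13 to 0.05 (adjusted p = 0.59, limma). It ran from -0.07 without control replicate 1 to -0.007 without control replicate 3.

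*Mmp15* encodes MT2-MMP, a close relative of MT1-MMP. It had 892, 868 and 893 normalized counts in control and 896, 971 and 1109 in DHT libraries. The groups did not overlap, but the first DHT library lay only just above the controls. The log2 difference was 0.16, with a 95% interval from -0.01 to 0.33 (adjusted p = 0.23, limma). Without DHT replicate 3, the highest of its group, it was 0.077, and without DHT replicate 1 it was 0.23, and neither passed.

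*Mmp23* encodes a protease anchored by its amino terminus, expressed mainly in reproductive tissues. The level was 2707, 2582 and 2876 normalized counts in control and 2496, 2413 and 2438 in DHT libraries. All DHT libraries lay below all controls, and the log2 difference was -0.15, with a 95% interval from -0.26 to -0.05 (adjusted p = 0.075, limma). *Mmp23* passed the test without the second control replicate, the lowest control, at a difference of -0.19 (adjusted p = 0.048, limma) and after quantile normalization at -0.16 (adjusted p = 0.048, limma). In all, 4 of the 9 measured members, *Mmp2*, *Timp3*, *Mmp15* and *Mmp23*, had groups without overlap, and 30.6% of all genes tested did.

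**Figure D2:**
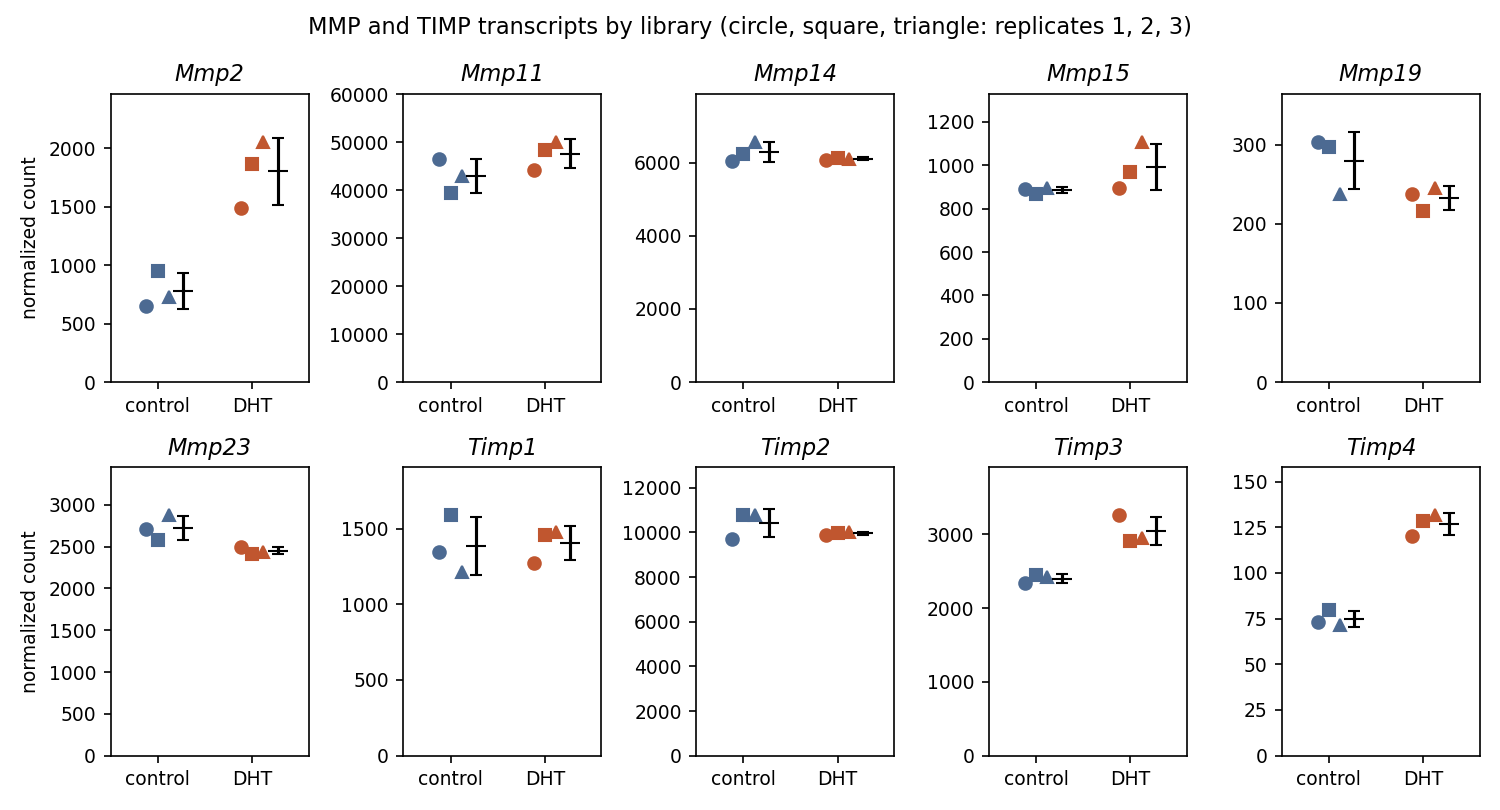
Normalized counts of the 9 measured members and *Timp4* in each of the 3 control and 3 DHT libraries, 1 panel a gene with its own axis from 0; points are libraries, and the black bars beside them are the group mean and SD. The DHT libraries of *Mmp2* (1492 to 2057) and *Timp3* (2912 to 3260) lay above all control libraries of the same gene.

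Among the inhibitors, *Timp3* rose. It encodes the TIMP that binds to the extracellular matrix and also blocks ADAM and ADAMTS proteases. Its normalized counts were 2334, 2444 and 2417 in control and 3260, 2912 and 2956 in DHT libraries. The first DHT library was the highest, and the lowest DHT library was above the highest control. The mean rose by 26.8%, or 0.34 on the log2 scale (SE 0.05, 95% interval 0.23 to 0.45, adjusted p = 0.0030, limma). Leaving out any 1 library gave log2 fold changes from 0.29 to 0.37. *Timp3* lies within *Syn3* on the opposite strand and shares 1733 exon bases with it. *Syn3* was at 48.2 to 62.3 normalized counts in control and 49.9 to 53.5 in DHT libraries, far below *Timp3*, and did not pass the test (adjusted p = 0.73, limma).

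The other two TIMPs among the members did not pass. *Timp1*, which encodes an inducible inhibitor that binds pro-MMP9, was at 1349, 1589 and 1215 normalized counts in control and 1275, 1455 and 1478 in DHT libraries. The groups overlapped, and the log2 difference was 0.02, with a 95% interval from -0.19 to 0.24 (adjusted p = 0.91, limma). *Timp2*, which encodes the inhibitor that both blocks MMP2 and takes part in its activation by MT1-MMP, was at 9719, 10764 and 10773 in control and 9896, 9961 and 10011 in DHT libraries. The DHT libraries lay within the control range, and the log2 difference was -0.06, with a 95% interval from -0.17 to 0.04 (adjusted p = 0.43, limma). It was -0.11 without control replicate 1 and -0.04 without control replicate 3, and neither passed.

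*Timp4*, the remaining gene of the inhibitor family and not a member, is part of the list of regulators below. Its normalized counts were 73.2, 79.9 and 71.3 in control and 120.4, 129 and 132 in DHT libraries, and the groups did not overlap. It rose by 0.76 on the log2 scale (SE 0.13, adjusted p = 0.0060, limma), from a level that was low beside those of *Timp1*, *Timp2* and *Timp3*.

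**Figure D3:**
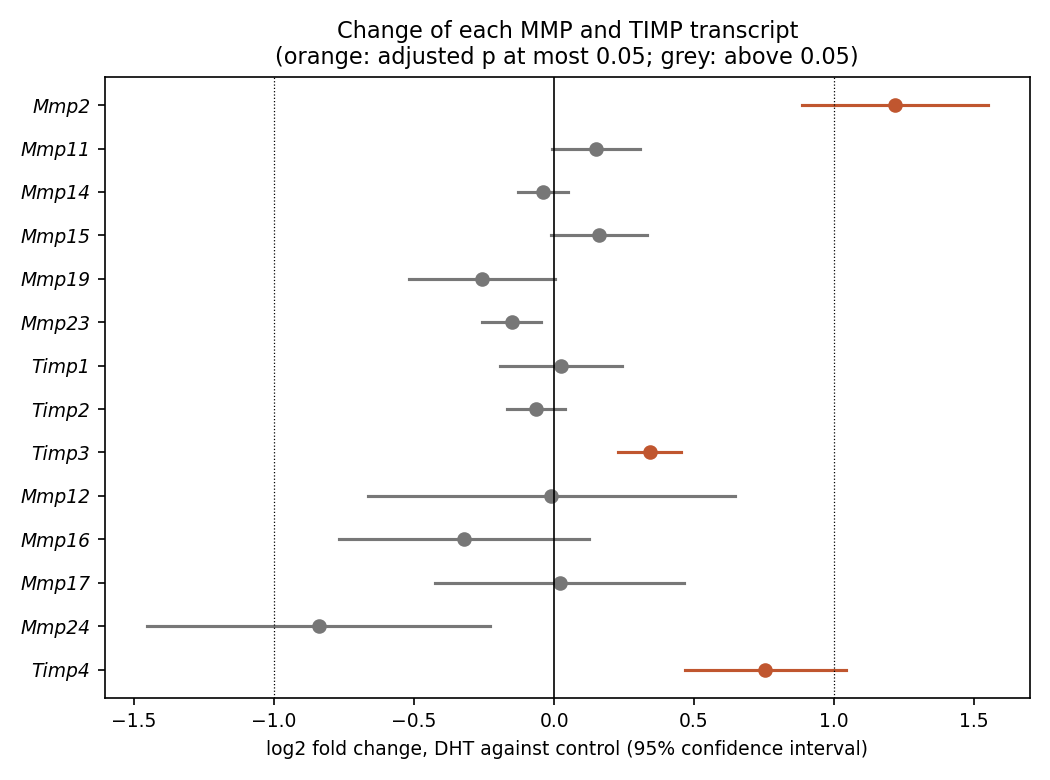
Log2 fold change of each measured MMP and TIMP gene in DHT against control granulosa cells, members and others, with its 95% interval from limma; orange genes passed the test, grey ones did not, and dotted lines mark log2 fold changes of -1 and 1. *Mmp2* (1.22), *Timp3* (0.34) and *Timp4* (0.76) lay to the right of 0, and the intervals of *Mmp23* and *Mmp24*, which did not pass after adjustment, lay to its left.

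The make-up of each family was then compared as shares of its summed level per kilobase. Of the 10 MMP genes measured, members and others, *Mmp11* held 84.7 ± 1.3% in control and 85.4 ± 0.50% in DHT libraries (SD, n = 3). The share of *Mmp2* was 0.998%, 1.67% and 1.18% in the control libraries and 2.36%, 2.72% and 2.90% in the DHT libraries. The summed MMP level per kilobase was 18232 ± 1267 in control and 20054 ± 1168 in DHT libraries, a mean difference larger than either SD, although the libraries of the groups overlapped. Of that sum, *Mmp23* held 6.39 ± 0.40% in control and 5.23 ± 0.39% in DHT libraries. *Mmp14* held 5.80 ± 0.53% and 5.12 ± 0.29%, with overlap between the groups. The change in *Mmp2* thus moved a small portion of the MMP transcripts. Among the 4 TIMP genes, *Timp2* held 59.0% in control and 56.4% in DHT libraries, *Timp1* 34.3% and 34.8%, *Timp3* 6.50 ± 0.29% and 8.26 ± 0.73%, and *Timp4* 0.280% and 0.475%. The summed TIMP level per kilobase was 4540 ± 289 in control and 4530 ± 118 in DHT libraries, a difference smaller than the spread between replicates.

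Ratios of protease to inhibitor transcripts were computed within each library, where they do not depend on how the libraries were scaled. With 3 libraries against 3 the exact permutation test cannot give a two-sided p below 0.1, so no ratio could pass at 0.05. Of the 6 ratios listed, *Mmp9* to *Timp1* was not analysed here. The log2 ratio of *Mmp2* to *Timp2* counts was -3.89, -3.50 and -3.88 in control and -2.73, -2.42 and -2.28 in DHT libraries. The groups did not overlap, and the mean differed by 1.28 (exact permutation p = 0.1), a 2.43-fold higher ratio. The log2 ratio of *Mmp2* to *Timp1* counts was -1.04, -0.74 and -0.73 in control and 0.23, 0.36 and 0.48 in DHT libraries. Thus *Timp1* had more reads than *Mmp2* in each control library and fewer in each DHT library. The mean of this ratio differed by 1.19 (exact permutation p = 0.1). These counts are not corrected for gene length. Per kilobase of exon the mean of *Timp1* stayed above that of *Mmp2*, at 1559 against 231 in control and 1580 against 535 in DHT libraries.

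The ratio of *Mmp2* to *Timp3* differed less, since both genes rose. Its mean log2 value was -1.64 ± 0.25 in control and -0.76 ± 0.32 in DHT libraries (SD, n = 3), a difference of 0.88 (exact permutation p = 0.1) with no overlap. The ratio of *Mmp2* to *Mmp14*, the gene of its activator, had means of -3.03 ± 0.27 and -1.77 ± 0.23 and a difference of 1.26 (exact permutation p = 0.1). The ratio of *Mmp14* to *Timp2*, the pair that activates pro-MMP2, had means of -0.73 ± 0.05 and -0.70 ± 0.01. Its groups overlapped, and the difference was 0.02 (exact permutation p = 0.7). The 4 ratios with *Mmp2* share its counts and are not independent of each other or of the test on *Mmp2* itself. After Benjamini-Hochberg adjustment over the 5 ratios, the exact permutation p was 0.125 for each of these 4 and 0.7 for *Mmp14* to *Timp2*.

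**Figure D4:**
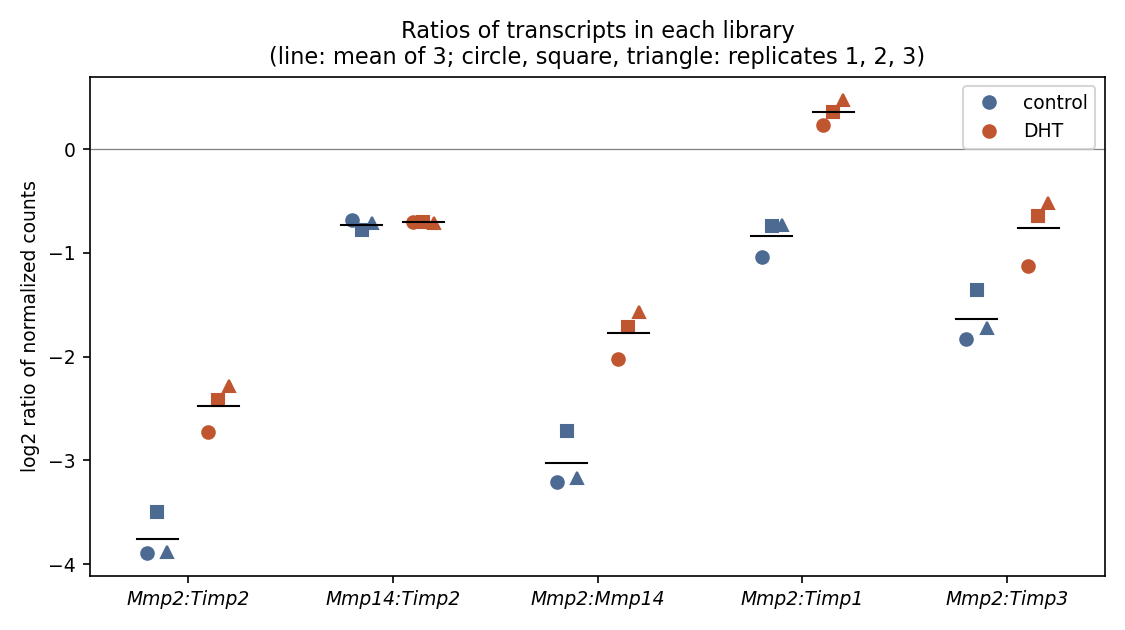
Log2 ratio of the counts of 2 genes in each library, for the 5 ratios analysed; points are the 3 control and 3 DHT libraries and bars are group means. The 4 ratios with *Mmp2* had no overlap between groups, and *Mmp14* to *Timp2* did.

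The rest of the MMP family was examined as a list of 16 other MMP genes, of which 4 were measured. None passed the test with limma, where 11.2% of all genes tested passed, and none passed with edgeR or DESeq2. At an unadjusted limma p under 0.05, 1 was lower and 0 were higher, where 1915 and 2186 of the 16292 genes tested were. Their median log2 fold change was -0.17. *Mmp24*, which encodes a membrane-type MMP of neural tissue, was at 38.6, 40.0 and 25.0 normalized counts in control and 15.7, 17.5 and 22.9 in DHT libraries. These counts were low, the groups did not overlap, and its log2 difference was -0.84 (adjusted p = 0.085, limma). *Mmp12*, *Mmp16* and *Mmp17* did not pass either. The collagenase genes *Mmp8* and *Mmp13* and the stromelysin genes *Mmp3* and *Mmp10* were not analysed here.

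Of 20 genes that activate, inhibit or clear MMPs, 18 were measured, 3 rose and none fell, with a median log2 fold change of 0.01, where 6.52% of all genes tested rose and 4.66% fell. Without DHT replicate 1 or DHT replicate 2, the number that rose was 2, and without control replicate 3 it was 4. At an unadjusted limma p under 0.05, 4 were higher and 4 lower, where 2186 and 1915 of the 16292 genes tested were. Of this list, edgeR and DESeq2 each called 3 higher and 1 lower. Their calls over all genes were 1070 higher and 746 lower with edgeR and 1122 and 805 with DESeq2. Beside *Timp4*, the genes that rose were *Spock3*, a testican proteoglycan that inhibits membrane-type MMPs, at 0.88 (adjusted p = 0.018, limma), and *Itgb3*, the integrin subunit that with integrin alpha v binds MMP2 at the cell surface, at 0.62 (adjusted p = 0.0031, limma). *Itgb3* was at 844, 1010.1 and 1032 normalized counts in control and 1530.4, 1317 and 1576 in DHT libraries. All DHT libraries were above all controls. *Furin*, the convertase for the sites shown above, had a log2 difference of 0.03 and did not pass. *Reck*, the membrane-anchored MMP inhibitor, had a difference of -0.27 (adjusted p = 0.26, limma). *Thbs1*, a thrombospondin that takes MMP2 to its clearance receptor, had one of -0.28 (adjusted p = 0.053, limma). The other thrombospondin listed, *Thbs2*, had one of -0.95 (adjusted p = 0.13, limma) and did not pass. Its counts were low, with means of 21.2 in control and 10.6 in DHT libraries.

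All 27 genes on a list of matrix proteins that MMPs cut were measured, and 9 fell and 1 rose, where 4.66% of all genes tested fell and 6.52% rose; the median log2 fold change was -0.20. Among the genes that fell, the largest changes were those of *Nid2* (-1.28) and *Nid1* (-0.74), which encode the nidogens that link laminin to type IV collagen, *Fn1* (-0.80), which encodes fibronectin, and *Lama4* (-0.57), a laminin chain. The gene that rose was *Lama1*, another laminin chain, at 0.85 (adjusted p = 0.0017, limma). The other 5 that fell were *Lamc1* and the collagen genes *Col4a3*, *Col4a4*, *Col4a5* and *Col4a6*, between -0.44 and -0.26. *Col4a1* and *Col4a2*, the main type IV collagen chains and substrates of MMP2, had log2 differences of 0.03 and 0.06 and did not pass. At an unadjusted limma p under 0.05, 14 were lower and 1 higher, where 1915 and 2186 of the 16292 genes tested were. For the substrates, edgeR called 9 lower and 1 higher and DESeq2 11 and 1, against 746 and 1070 and 805 and 1122 over all genes. The number that fell was 4 without the intensity trend, 5 without DHT replicate 3, 6 without DHT replicate 2 and 12 without control replicate 1.

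Of 12 transcription factor genes of the AP-1, ETS and EGR families, whose binding sites are known from MMP promoters, 1 fell and none rose, where 4.66% of all genes tested fell and 6.52% rose. The gene that fell was *Egr1*, an immediate early factor, at -0.34 (adjusted p = 0.0037, limma), and the median of the list was -0.13. At an unadjusted limma p under 0.05, 3 were higher and 2 lower, where 2186 and 1915 of the 16292 genes tested were. For this list, edgeR called 0 higher and 1 lower and DESeq2 0 higher and 2 lower. Among all genes, edgeR called 1070 higher and 746 lower and DESeq2 1122 and 805. The number that fell was 0 without the intensity trend and 3 without control replicate 3.

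**Figure D5:**
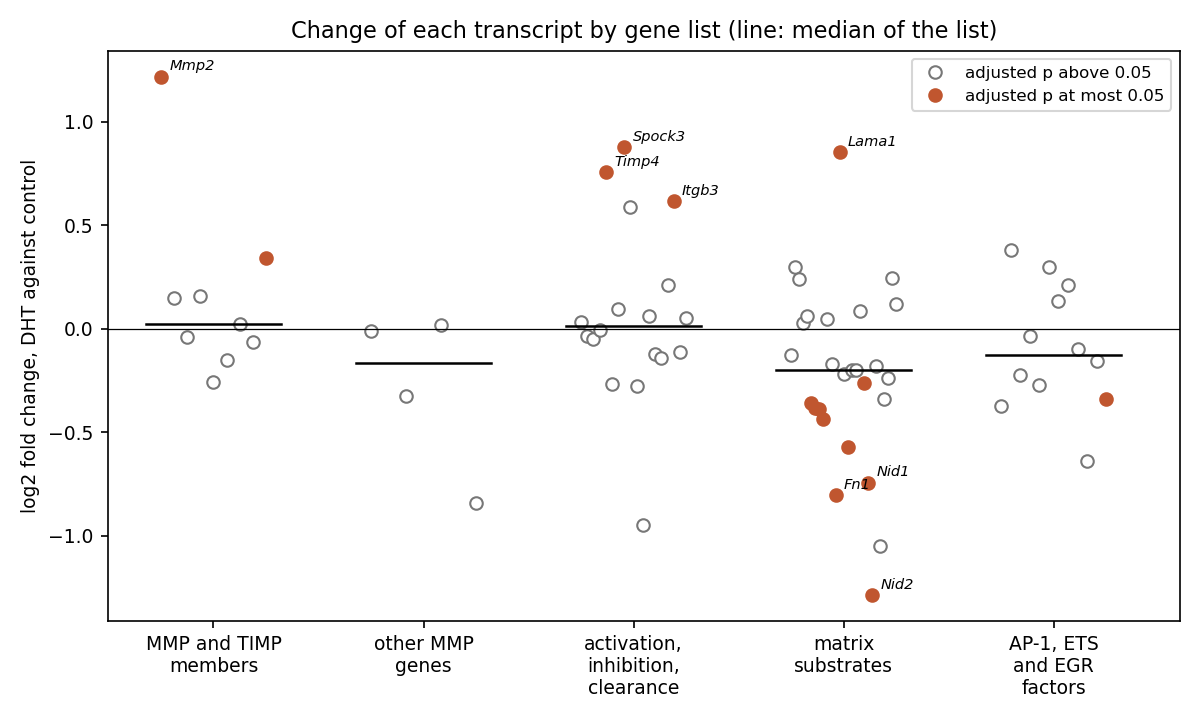
Log2 fold change in DHT against control granulosa cells of each measured gene of the MMP and TIMP members and the 4 related lists; each point is a gene, filled points passed the test, and the bar is the list's median. The matrix substrates had a median of -0.20, with 9 genes that fell and 1 that rose.

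Promoter sequence was available from RefSeq (GRCm38.p6; 250 bases before to 50 after each start) for *Mmp11*, *Mmp14*, *Mmp15*, *Mmp23*, *Timp1*, *Timp2* and *Timp3*. Motifs were searched on both strands among 32851 promoters. The palindromic androgen response element was found in 0.00913% of all promoters and in none of these members. Its half-site TGTTCT, which the palindrome contains, was found in 19.0% of all promoters and, among these members, in *Mmp11* and in both starts of *Mmp23*. The AP-1 motif TGANTCA was found in 7.81% of all promoters and in none of these members, and the GC box GGGCGG in 35.7% of all promoters and in all 7 of these members, for *Mmp23* at 1 of its 2 starts. These matches describe letters in a short window and say nothing of binding.

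The genes whose pattern over the 6 libraries was most like that of *Mmp2* were sought among 11632 genes with a mean of at least 100 normalized counts. The highest Pearson correlations of log2 values were those of *Edem2* (0.998), *Papss1* (0.998), *Cped1* (0.997), *Fhl3* (0.996) and *Bves* (0.996). These points are 6 libraries in 2 groups, so a gene that differs between the groups and varies little within them scores high.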

How the data were processed

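The members and the lists of related genes were chosen with earlier results of these data known. Reads from 2 × 150 bp sequencing were trimmed (Trimmomatic 0.36), aligned to GRCm38 (STAR 2.5.2b) and counted per gene (featureCounts, Subread 1.5.2) per the labels and the study's methods; the strand setting and annotation release are not given in the sources used here. The deposited signal values are gene counts that the authors divided by a DESeq2 size factor per library. All values were whole multiples of 1 step per library (tolerance 0.001), so whole reads were recovered for edgeR 4.0.16 and DESeq2 1.42.0 as alternatives. The authors' columns of fold changes and p-values were not used.

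Log2(value + 1) was tested with limma 3.58.1 (moderated test with an intensity trend, R 4.3.3) over genes whose mean value reached 10, which makes fold changes of low genes smaller, with Benjamini-Hochberg adjustment over 16292 genes. Reads on genes were 38486526 to 41928585 in control and 36111177 to 39777305 in DHT libraries, so depth was somewhat lower with DHT. The lowest mean among all genes was 10.2 reads, so genes under about that level could not be assessed. Gene lengths and positions came from GENCODE M21 (16259 of 16300 IDs matched). Nothing marks libraries as separate cultures beyond the pooled mice. Genes named were all members, at most 4 genes per direction of each list by size of change among those that passed, and the 5 most like *Mmp2*; 1 further gene that the rule names is not reported here, and other genes were named after their values were seen. Alternatives were other pseudocounts, filters, scalings, tests, the replicate block and leaving out each library.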

Additional observations from a re-analysis of the deposited data

How the results depend on the processing

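The number of members that rose was 2 in all 16 alternatives, and 1 exceeded both thresholds in each. The number of members that fell was 1 after quantile normalization and 0 to 1 when 1 library was left out. For the other MMP genes, the number that fell was 0 to 1 with 1 library left out (1 without control replicate 3). For the activation, inhibition and clearance genes it was 2 after quantile normalization, 1 with edgeR, 1 with DESeq2 and 0 to 2 with 1 library left out (2 without control replicate 1), and the number that rose was 2 without the intensity trend and 2 to 4 with 1 library left out (2 without DHT replicate 1 or DHT replicate 2, 4 without control replicate 3). For the matrix substrates, the number that fell was 4 without the intensity trend and 5 to 12 with 1 library left out, and the number that rose was 1 to 2 (2 without control replicate 3). For the transcription factors, the number that fell was 0 without the intensity trend, 2 with DESeq2 and 1 to 3 with 1 library left out (3 without control replicate 3), and the number that rose was 0 to 1 (1 without control replicate 2, control replicate 3 or DHT replicate 1). With 1 library left out, the log2 difference of *Timp1* ran from -0.065 to 0.13, negative without control replicate 3, DHT replicate 2 or DHT replicate 3, and that of the *Mmp14* to *Timp2* ratio from -0.0042 to 0.044, negative without control replicate 2. The cause of these changes was not tested.

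Over all genes, 1823 passed the test, 804 without the intensity trend, 990 with the replicate block, 968 without DHT replicate 2 and 937 without DHT replicate 3. Both thresholds were passed by 213, 131 with a mean of at least 50 and 140 without DHT replicate 3. Same-numbered libraries did not deviate together (correlations of 0.006, 0.067 and -0.24), and not every library correlated best with its own number. With 3 libraries a group, these correlations cannot exclude that same-numbered libraries came from the same pools of mice. With the block, the adjusted p (limma) was 0.0017 for *Mmp2* and 0.022 for *Timp3*, and 6 substrates fell. No scaling moved the median log2 fold change of all genes by 0.1. With 3 libraries a group, a change as small as those inside an interval that holds 0 could not be told from 0.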

Other observations

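After the values of the members were seen, the tested genes within 100000 bases of *Mmp2*, *Timp3* and *Timp4* were read. *Lpcat2*, which encodes a lysophosphatidylcholine acyltransferase, starts 1919 bases beyond the end of *Mmp2* on the same strand (chr8:92855339-92919279, GRCm38). It was at 791, 920.0 and 822 normalized counts in control and 1214, 1372 and 1540 in DHT libraries, and it rose by 0.70 on the log2 scale (SE 0.09, adjusted p = 0.0015, limma). *Capns2*, a calpain subunit gene inside the *Lpcat2* span, had a mean of 16.7 ± 4.8 in control and 32.0 ± 3.1 in DHT libraries (SD, n = 3) and a log2 difference of 0.93 that did not pass the test (adjusted p = 0.055, limma). The third tested neighbour, *Gm45472*, did not pass (adjusted p = 0.53, limma), and neither did *Syn3* beside *Timp3* nor *Syn2* beside *Timp4* (log2 difference 0.06, adjusted p = 0.93, limma).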
